A study of Homo sapiens with 12 samples.

Results

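The comparison described here sets a stronger against a weaker hairpin to the same gene, H2AZ2, and covers 8 of the 12 arrays of the series. SK-mel147, an established human melanoma cell line, carried 1 lentivirally delivered short hairpin RNA per sample. The hairpins sh_37 and sh_38 target H2AZ2 (2 arrays each), and the hairpins scrambled and luciferase served as controls (2 arrays each). The 4 arrays of H2AZ1 hairpins (sh_83 and sh_84) entered the fits through the shared estimate of spread, and sh_83 is quoted beside genes named here that it also changed. In the array titles the reagent is called siRNA, whereas the protocol describes lentiviral hairpins. For 1 H2AZ1 array, sh_84 replicate 2, the title and another label name different hairpins. Members were chosen by title, so no measured value decided which arrays enter. All cells share the line, the vector system and the infection. Each hairpin is 1 construct, so its strength and its sequence cannot be told apart. Hairpin sequences and their off-target matches were not analysed here. No label states whether replicate arrays came from independent cultures, and the p-values below reflect array-to-array spread alone, which could be technical. In the sh_84 arrays H2AZ1, the gene that hairpin is labelled to target, read 12.10 and 12.15, close to the controls, and with sh_83 it read 9.79 and 9.94.

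H2AZ2 and H2AZ1 encode closely similar isoforms of H2A.Z, a variant of histone H2A that is placed into nucleosomes near promoters and enhancers by the SRCAP and p400 complexes. BET proteins bind acetylated chromatin and are known to associate with H2A.Z nucleosomes. E2F transcription factors switch on genes of DNA replication and the cell cycle when a cell leaves G1, and proliferation of melanoma cells is among the subjects the series title gives. Hairpins of unequal strength against 1 gene allow a question that a pooled knockdown does not: which transcripts follow the amount of target left, and which are seen with 1 hairpin alone.

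Values are log2 expression of 18417 genes, and a difference of 1 is a doubling. The labelled cell type was checked by its markers. SOX10, a neural crest and melanocyte factor, lay between 10.24 and 10.80 over the 8 arrays, and MITF between 8.14 and 8.30. The pigment genes TYR, TYRP1, PMEL and MLANA had medians from 4.76 to 5.78, at the 6.9th to 16.7th percentile of all genes, so pigmentation markers of the lineage were low here. The SD of the difference between replicates over all genes ran from 0.151 (sh_37) and 0.214 (luciferase) to 0.243 (sh_38) and 0.27 (scrambled). The mean level of 194 small nucleolar RNA genes, a measure of small RNA carried into a preparation, was 6.90 and 6.92 with sh_37, 6.92 and 6.68 with sh_38, and between 6.73 and 7.16 in the controls. Its part in the results was not tested beyond a fit with that level as covariate, given beside the counts.

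The targeted transcript sets the order of the hairpins. H2AZ2 read 10.94 and 10.99 in the scrambled arrays, 11.03 and 11.05 in the luciferase arrays, 10.43 and 10.35 with sh_38, and 9.94 and 9.83 with sh_37. No array of 1 level overlapped another level. H2AZ2 stood at 65.4% of control with sh_38 (log2 difference -0.61, SE 0.08, limma adjusted p = 0.00204) and at 46.1% with sh_37 (-1.12, SE 0.08, limma adjusted p = 1.13e-05). The direct difference between the hairpins was -0.50 (SE 0.09, 95% interval -0.70 to -0.30, limma adjusted p = 0.00763). That call was lost without sh_37 replicate 2. The sister gene H2AZ1 read 12.30, 12.17, 12.12 and 12.38 in the 4 controls, 11.97 and 12.09 with sh_37, and 12.11 and 12.09 with sh_38. Its difference between the hairpins was -0.07 (95% interval -0.31 to 0.17), which did not pass. Against control H2AZ1 stood at 86.2% with sh_37 (-0.214, 95% interval -0.422 to -0.006, limma adjusted p = 0.19). With sh_38 it stood at 90.5% (-0.145, 95% interval -0.353 to 0.063, limma adjusted p = 0.396). Neither passed. The change of H2AZ2 with sh_38 was 0.5495 of that with sh_37 on the log2 scale (SE 0.06756), and this ratio is the yardstick used below for scaling.

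The direct comparison of sh_37 with sh_38 called 1155 genes at a limma adjusted p under 0.05, which is 6.27% of all 18417 genes. Of these, 749 were higher with sh_37 (4.07%) and 406 lower (2.2%). Against the 4 controls, sh_37 changed 2377 genes (12.9%: 1053 up, 5.72%, and 1324 down, 7.19%) and sh_38 changed 848 (4.6%: 235 up, 1.28%, and 613 down, 3.33%). These comparisons share their control arrays. The scrambled and luciferase hairpins, compared in the same limma fit, gave no called gene, with 1384 at an unadjusted p under 0.05. The counts rest on few arrays. Without sh_37 replicate 1 or 2 the direct comparison called 393 or 490 genes, and without sh_38 replicate 2 it called 534. Calls with sh_37 against control fell to 922 or 940 without its replicate 1 or 2. Calls with sh_38 against control ran from 148 without sh_38 replicate 2, and 478 without luciferase replicate 2, to 1431 without scrambled replicate 2. In all 12 fits that leave out 1 array, 329 of the 1155 differences stayed called. With the small nucleolar RNA level as covariate, the higher share of calls moved from 64.8% to 54.7% for the direct comparison and from 27.7% to 43.8% for sh_38 against control.

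**Figure D1:**
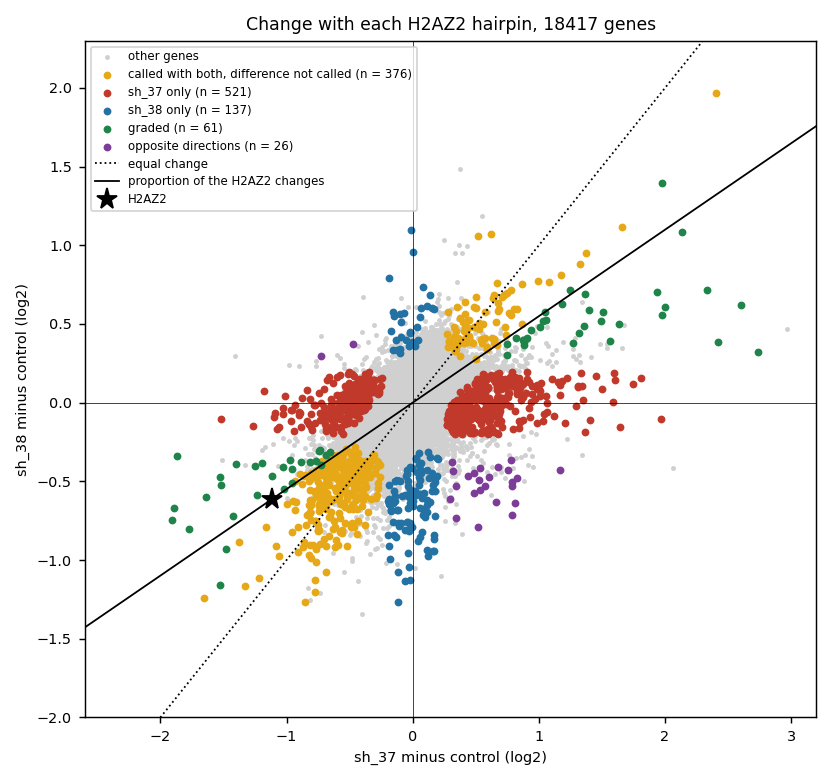
Scatter plot of all genes, with the change against control (log2) for sh_37 on the horizontal axis and for sh_38 on the vertical axis. Coloured points are the classes used in the text, the star is H2AZ2, the solid line has the slope of 0.5495 set by H2AZ2 and the dotted line marks equal change. Both axes subtract the same 4 control arrays. Most graded genes lie near the solid line or between it and the horizontal axis, shared genes near the dotted line, and genes of a single hairpin along the axes. These places follow in part from the rules that define the classes.

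Genes were sorted by the 3 tests together. Graded genes were called with both hairpins and between them, all with 1 sign, as H2AZ2 was. They numbered 61 with H2AZ2 itself (0.331% of all genes), 32 higher and 29 lower. The median ratio of the sh_38 change to the sh_37 change in them was 0.421. Since the rule requires a called and larger change with sh_37, that ratio follows in part from the choice. Another set, 521 genes (2.83%), passed with sh_37 and between the hairpins while sh_38 lay within 0.2 of control. Its size does not compare directly with the graded count, whose rule needs a called change with sh_38 as well. The reverse, a call with sh_38 while sh_37 lay within 0.2 of control, held for 137 genes (0.744%). Opposite directions with the hairpins were called in 26 genes (0.141%). A last set of 376 genes (2.04%) was called with both hairpins in 1 direction with no call between them. The limit of 0.2 divides a continuum: AGK and VN1R1 were just inside, both at -0.199 with sh_38, and ACSF2 at 0.201 and PLK2 at 0.202 just outside. Calls with sh_37 and between the hairpins were also made for 91 genes (0.494%) with sh_38 beyond 0.2 the same way without a call, TNFRSF9 among them, and for 87 (0.472%) with sh_38 beyond 0.2 the other way without a call, among them CLDN1 and TGFBR2. Another 1202 genes (6.53%) were called with sh_37 against control but neither with sh_38 nor between the hairpins, so these data place them in no class. Likewise 194 (1.05%) were called with sh_38 alone and not between the hairpins, and 13 (0.0706%) were called with both and between them with the larger change under sh_38. A call between the hairpins with neither passing against control was made for 178 genes (0.966%), and 17 (0.0923%) and 24 (0.13%) were called with sh_38 while sh_37 lay beyond 0.2 in the same or the other direction without a call.

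**Figure D2:**
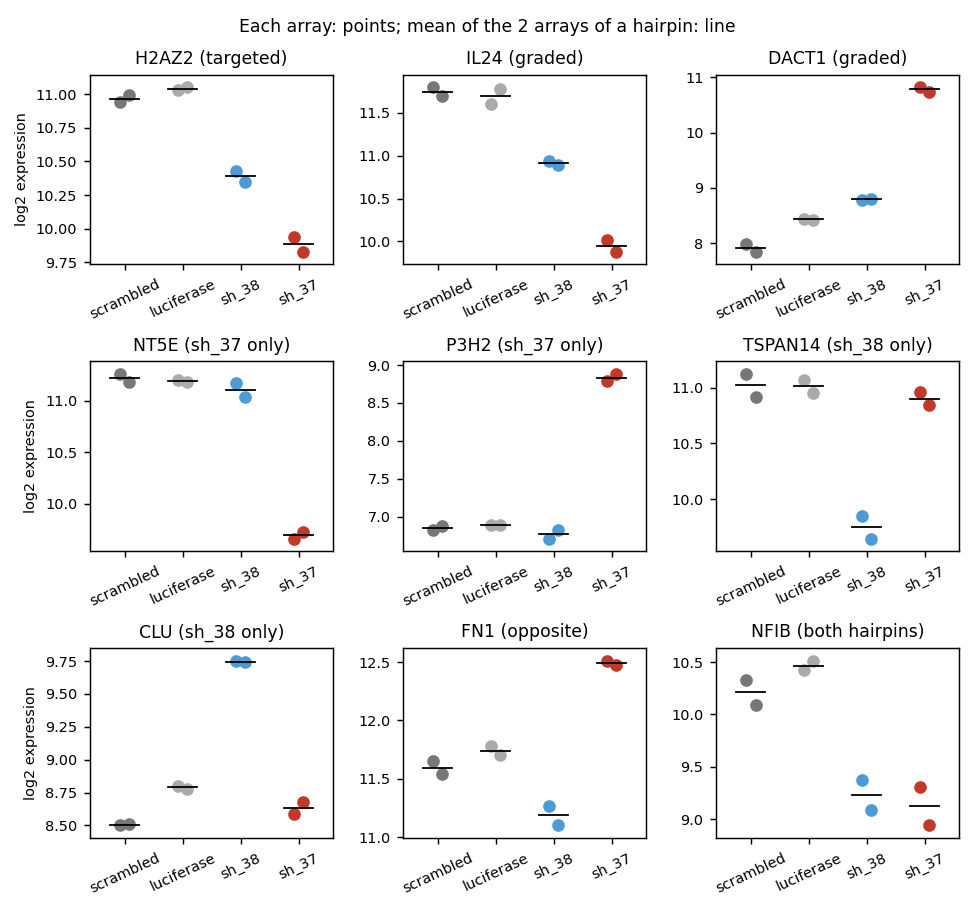
Log2 expression of 9 genes on each of the 8 arrays, 1 panel per gene and a separate vertical scale in each, with points for arrays and a line for the mean of the 2 arrays of a hairpin. H2AZ2, IL24 and DACT1 step from control through sh_38 to sh_37, NT5E and P3H2 move with sh_37, TSPAN14 and CLU move with sh_38, FN1 moves in opposite directions, and NFIB is lower with both hairpins.

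IL24 fell and CPA4 and DACT1 rose, with levels ordered like H2AZ2. IL24, a cytokine of the interleukin-10 family, read 11.80 and 11.70 (scrambled), 11.61 and 11.78 (luciferase), 10.94 and 10.89 (sh_38), and 10.02 and 9.88 (sh_37). The levels were separate at every step. IL24 fell by 0.805 with sh_38 (SE 0.08, limma adjusted p = 0.000671) and by 1.77 with sh_37, and the hairpins differed by -0.96 (SE 0.095, limma adjusted p = 0.000235). CPA4, a secreted carboxypeptidase, moved the other way, at 8.03 and 8.03 (scrambled), 8.41 and 8.47 (luciferase), 9.31 and 9.33 (sh_38), and 10.33 and 10.40 (sh_37). CPA4 rose by 1.09 with sh_38 (SE 0.07, limma adjusted p = 0.000152) and by 2.14 with sh_37, and the direct difference was 1.049 (SE 0.08, limma adjusted p = 5.75e-05). The controls themselves differed for CPA4, scrambled lying below luciferase by 0.41. CPA4 was also called with the H2AZ1 hairpin sh_83, at 8.75 and 8.71 (0.496 above control, limma adjusted p = 0.0104), where H2AZ2 read 10.98 and 10.89. No departure from proportion to H2AZ2 was called for IL24 or CPA4 (limma adjusted p = 0.337 and 0.55), and both kept all 3 calls whichever array was left out.

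DACT1, which binds Dishevelled in the Wnt pathway, read 7.98 and 7.85 (scrambled), 8.44 and 8.43 (luciferase), 8.78 and 8.81 (sh_38), and 10.82 and 10.74 (sh_37). It was ordered like H2AZ2 but not in proportion, with 0.62 for sh_38 (limma adjusted p = 0.00127) against 2.605 for sh_37 (limma adjusted p = 2.35e-08) and a departure of -0.81 (limma adjusted p = 0.000314). Besides IL24, CPA4 and DACT1, the genes that stayed graded in all 12 leave-out fits were DCBLD1 (sh_37 1.98, sh_38 0.55), NAT2 (1.94 and 0.70) and SEL1L3 (1.505 and 0.58). DCBLD1, NAT2 and SEL1L3 fall outside the naming rule and were chosen after their values were seen. All 61 graded genes kept the sh_37 call in every leave-out fit, 26 kept the difference and 12 the sh_38 call. The count was 11 without sh_38 replicate 2, 20 without sh_38 replicate 1, 23 and 25 without sh_37 replicates 1 and 2, 36 without either sh_83 array or luciferase replicate 2, and 40 without scrambled replicate 1.

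Other graded genes with large changes were less even. GASK1B, a Golgi protein, read 6.26 and 6.34 (scrambled), 6.82 and 6.79 (luciferase), 6.83 and 6.91 (sh_38), and 9.27 and 9.31 (sh_37). The sh_38 arrays were thus barely above the luciferase arrays, and the sh_38 call of 0.32 (limma adjusted p = 0.0477) was lost in 11 of the 12 leave-out fits, all but that without scrambled replicate 2. EMP1, a membrane protein of the PMP22 family, read 10.72 to 10.82 in the 4 controls, 10.43 and 10.44 with sh_38, and 9.02 and 8.79 with sh_37. The sh_38 call of EMP1 (-0.34, limma adjusted p = 0.0421) was lost without either sh_38 array, without any H2AZ1 array, and without scrambled replicate 1 or either luciferase array. The sh_38 calls of MRGPRX4 (-0.67) and SPRY4 (-0.60) were likewise lost in several such fits, among them that without sh_38 replicate 2.

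The test of proportion asks of every gene whether the sh_38 change is 0.5495 of the sh_37 change. It called 699 of 18416 genes (3.8%), 195 above 0 (1.06%) and 504 below (2.74%), where the sign is that of sh_38 minus its share. Among the 2376 other genes called with sh_37, 2030 showed no called departure. A departure that misses the threshold does not show proportion, since 390 of the 2030 were also called with sh_38 and the rest were not. In 296 genes the sh_38 change fell short of proportion or ran the other way, and in 50 it exceeded proportion. The 296 include all 26 genes with opposite calls. Another 353 departures were in genes not called with sh_37. Of the 521 genes of sh_37 alone, 171 were called on the short side of proportion and 0 on the other. In the rest of the 521 no departure was called, which shows neither proportion nor its absence. The most negative departures were those of CLDN1 (-1.55), a tight junction claudin, LPAR1 (-1.23), a lysophosphatidic acid receptor, TSPAN14 (-1.21) and GASK1B (-1.19). LPAR1 read 7.17 to 7.62 in the controls, 7.50 and 7.64 with sh_37, and 6.25 and 6.24 with sh_38. The most positive were SPINK1 (1.28), a secreted trypsin inhibitor, CLU (1.103) and RPSAP52 (1.07). SPINK1 read 6.18 to 6.58 in the controls, 6.55 and 6.87 with sh_37, and 7.72 and 7.91 with sh_38. In LPAR1, SPINK1, TSPAN14 and CLU the sh_37 change was itself not called. Without sh_38 replicate 2 the test called 138 genes, without sh_37 replicates 1 and 2 it called 312 and 383, and without either sh_83 array 453.

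Among genes of sh_37 alone, P3H2 had the largest positive difference between the hairpins. P3H2, a hydroxylase of collagen prolines, read 6.82, 6.87, 6.89 and 6.89 in the 4 controls, 6.71 and 6.82 with sh_38, and 8.79 and 8.88 with sh_37. The hairpins differed by 2.07 (SE 0.08, limma adjusted p = 7.36e-07), while sh_38 lay at -0.10 from control (95% interval -0.26 to 0.06, limma adjusted p = 0.428). NT5E, the ecto-nucleotidase CD73, had the largest negative difference, at 11.18 to 11.26 in the controls, 11.17 and 11.04 with sh_38, and 9.66 and 9.72 with sh_37. The sh_37 arrays were more than 1 log2 unit below all others, and the difference was -1.42 (SE 0.09, limma adjusted p = 1.87e-05). Both calls held in all 12 leave-out fits.

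Further rises of this class were F2RL2, a protease-activated receptor (difference 1.80), CRYAB, a small heat shock protein (1.66), and the protocadherins PCDHB7 (1.63) and PCDHB8 (1.46). Further falls were SPRYD4 (-1.26), PDHA1, a subunit of pyruvate dehydrogenase (-1.03), STAMBPL1, a deubiquitinase (-1.01), and UCA1, a long noncoding RNA (-1.12). The difference of UCA1 was lost without sh_37 replicate 1 or 2. Of the 521 genes, 303 were higher and 218 lower, and 96 kept the class in all 12 leave-out fits. Their number was 169 and 198 without sh_37 replicates 1 and 2, and 269 and 238 without sh_38 replicates 1 and 2.

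The largest difference of all lay in TNFRSF9, a T-cell costimulatory receptor also known as 4-1BB. It read 7.19 and 7.31 (scrambled), 7.70 and 7.52 (luciferase), 8.10 and 7.69 (sh_38), and 10.40 and 10.39 (sh_37). With sh_38 the range touched that of luciferase, and its change of 0.465 did not pass (limma adjusted p = 0.121), whereas the hairpins differed by 2.50 (SE 0.18, limma adjusted p = 3.46e-05). CLDN1 read 8.27 to 8.52 in the controls, 8.04 and 7.90 with sh_38, and 10.29 and 10.61 with sh_37. Its sh_38 arrays lay below every control, but the change of -0.42 did not pass (limma adjusted p = 0.0735). KIF3B, a kinesin subunit, and TTLL1, a tubulin glutamylase, differed between the hairpins by -1.22 and 1.67. RPSAP52, a pseudogene transcript whose probes may share signal with the ribosomal protein gene it copies, was at -1.70, and that call was lost without sh_37 replicate 2.

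Genes of sh_38 alone were mostly lower, 107 of 137. TSPAN14, a tetraspanin, read 11.12, 10.92, 11.07 and 10.95 in the controls, 10.96 and 10.84 with sh_37, and 9.85 and 9.65 with sh_38. Its sh_38 arrays stood apart from the other 6, at -1.27 from control (SE 0.09, limma adjusted p = 0.000152) and a difference between hairpins of 1.15 (limma adjusted p = 0.000166). NFIA, a nuclear factor I transcription factor, read 7.52 to 7.79 in the controls, 7.58 and 7.53 with sh_37, and 6.80 and 6.39 with sh_38. HIVEP2, a zinc finger transcription factor (-1.13 with sh_38), CARNMT1, a carnosine methyltransferase (-1.13), and VSNL1, a neuronal calcium sensor (-1.04), behaved like NFIA (-1.08), and all 5 kept both calls in every leave-out fit.

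Among the 30 rises with sh_38 alone, CLU led. CLU, the secreted chaperone clusterin, read 8.50 and 8.51 (scrambled), 8.80 and 8.78 (luciferase), 8.59 and 8.68 (sh_37), and 9.75 and 9.74 (sh_38). The sh_37 arrays lay between the control hairpins, and the sh_38 change was 1.096 (SE 0.08, limma adjusted p = 0.000152). PNLIPRP3, a pancreatic lipase relative, rose by 0.96 and the antisense transcript ARRDC1-AS1 by 0.73. SPHK1, a sphingosine kinase, was at 0.795, with its sh_38 call lost without sh_38 replicate 2 and its difference lost without sh_37 replicate 1. The difference of NETO1 (-0.55) was lost without either sh_37 array or without sh_38 replicate 1. The class numbered 35 without sh_38 replicate 2 and 43 and 52 without sh_37 replicates 1 and 2, and 22 of 137 kept it in all 12 leave-out fits.

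Genes with opposite calls were nearly all higher with sh_37 and lower with sh_38, 24 of 26. FN1, the matrix protein fibronectin, read 11.65 and 11.54 (scrambled), 11.78 and 11.70 (luciferase), 12.51 and 12.48 (sh_37), and 11.27 and 11.10 (sh_38). The controls lay between the hairpins without overlap, with 0.83 for sh_37 (limma adjusted p = 0.000115), -0.48 for sh_38 (limma adjusted p = 0.00846) and 1.31 between them (SE 0.095, limma adjusted p = 3.93e-05). The sh_38 call of FN1 was lost without sh_38 replicate 2. SLC35F1, a solute carrier relative, was the gene of this class that kept all 3 calls in every leave-out fit, at 10.07, 10.06, 10.40 and 10.36 in the controls, 11.08 and 10.98 with sh_37, and 9.67 and 9.49 with sh_38. All 26 kept the call between the hairpins. EEF1A2 (1.59), an elongation factor, SATB1 (1.502), a chromatin organiser, ATP9A (1.32) and CHRDL1 (1.31), a BMP antagonist, complete the 6 largest. The number was 6 without sh_38 replicate 2, 11 and 14 without sh_37 replicates 1 and 2, 11 without luciferase replicate 2, and 16 without scrambled replicate 1 or either sh_83 array.

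Genes called with both hairpins and not between them were mostly lower, 287 of 376. NFIB, a paralog of NFIA, read 10.33, 10.09, 10.42 and 10.51 in the controls, 9.31 and 8.94 with sh_37, and 9.37 and 9.09 with sh_38. Both hairpins overlapped each other and no control, and they differed by -0.10 (95% interval -0.435 to 0.226). GJA5, the gap junction protein connexin 40, likewise differed by -0.16 (95% interval -0.57 to 0.25) at changes of -1.33 with sh_37 and -1.17 with sh_38. EDIL3, a secreted integrin ligand, rose most, from 8.55 and 8.41 (scrambled) and 9.53 and 9.23 (luciferase) to 11.35 and 11.32 with sh_37 and 10.92 and 10.87 with sh_38. Its interval between hairpins ran from -0.011 to 0.883, so a graded response is within it. TP53INP1, a p53 target, rose by 1.66 and 1.12 with sh_37 and sh_38 and NEFL, a neurofilament, by 1.33 and 0.88, both with a difference near the threshold (limma adjusted p = 0.0561 and 0.0535). MMP8 (-1.65 and -1.24), the activin antagonist FST (-1.38 and -0.88) and PRDM1 (-1.16 and -0.79) were lower with both. The sh_38 calls of MMP8 and FST were lost without sh_38 replicate 2. Several of these genes were also called with sh_83, the H2AZ1 hairpin, against the same controls: GJA5 (-1.04), MMP8 (-1.10) and FST (-0.79) were lower, and TP53INP1 (0.68) and NEFL (0.61) higher, with limma adjusted p values from 0.0218 (GJA5) to 0.047 (TP53INP1). Over all genes sh_83 called 118 (0.641%). Genes of other classes named here that passed with sh_83 were SLC35F1 (-0.83), which is opposite, SPINK1 (1.25), SPP1 (0.57), GPNMB (1.13), ATP6V0D2 (0.965), RRAGD (0.77), SLC2A3 (0.46) and IGFBP3 (-0.40). All of these differences share the control arrays.

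In 292 of the 376 the 95% interval of the difference lay within 0.5 of 0, beside 12984 of all 18417 genes. The median ratio of sh_38 to sh_37 change in the 376 was 0.941. Since calls with both hairpins and no call between them favour similar changes, both figures follow in part from the choice. Of the 376, 36 exceeded proportion to H2AZ2 by the test. Their number was 61 without sh_38 replicate 2, 181 and 165 without sh_37 replicates 1 and 2, 230 without scrambled replicate 1, 167 without luciferase replicate 2, 249 without either sh_83 array and 549 without scrambled replicate 2, and 26 kept the class in all 12 leave-out fits.

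Gene groups were then read from 34 lists, each beside all genes (4.07% called higher and 2.2% lower between the hairpins, with a median of -0.03). The lists were chosen with earlier results of these data known, so their counts and their ranking are no independent support. In bulk RNA a change of the share of cells in a phase and a change per cell cannot be told apart.

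**Figure D3:**
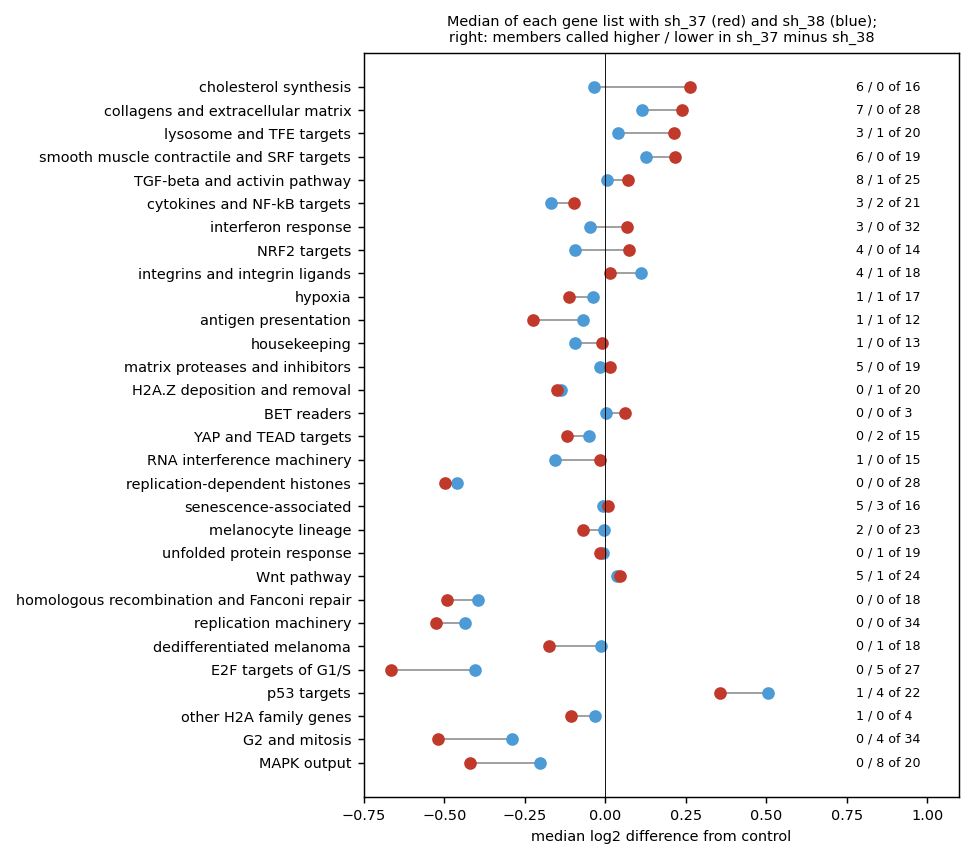
Median log2 difference from control of each functional gene list with sh_37 (red) and sh_38 (blue), ordered by the median of sh_37 minus sh_38. The figures at the right are members called higher / lower between the hairpins, out of those measured. Replication machinery is low with both hairpins and has 0 / 0 of 34, MAPK output has 0 / 8 of 20, and cholesterol synthesis 6 / 0 of 16.

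Replication machinery fell with both hairpins and no member was called between them. Of 34 genes of origin licensing, helicase, primase and polymerase, 30 fell with sh_37 (median -0.53), 26 fell with sh_38 (median -0.44) and the difference between hairpins passed in none (median -0.08). In 28 of the 34 the interval of the difference lay within 0.5 of 0, beside 12984 of all 18417 genes. By the proportion test 1 of the 34 departed from proportion to H2AZ2, beside 3.8% of all genes. The tests thus separate most members from neither equal change nor proportion. Array by array, the list median relative to control was -0.55 and -0.51 with sh_37, -0.40 and -0.49 with sh_38, and -0.09 to 0.06 in the controls. The largest differences were in ORC6, an origin recognition subunit (-0.31, limma adjusted p = 0.173), and PCNA, the sliding clamp (-0.29, limma adjusted p = 0.087). ORC6 read 8.75 to 8.94 in the controls, 8.04 and 8.04 with sh_37, and 8.50 and 8.20 with sh_38. Without sh_38 replicate 2 the number of falls with sh_38 dropped from 26 to 2, without luciferase replicate 2 to 12 and without scrambled replicate 1 to 15, at medians from -0.41 to -0.396. Without sh_37 replicate 1 the falls with sh_37 dropped from 30 to 14, at a median of -0.51. Replication-dependent histones were alike: 14 of 28 fell with each hairpin (medians -0.50 and -0.46) and none was called between them (median 0.00). Without sh_38 replicate 2 the falls with sh_38 numbered 2 and without luciferase replicate 2 they numbered 9, and without either sh_37 array those with sh_37 numbered 6. For histone genes the largest differences were H4C8 (0.54) and H4C4 (0.53), whose coding sequences resemble those of other histone genes, so their probe signals are uncertain. Of 18 genes of homologous recombination and Fanconi repair, 9 fell with sh_37, 6 with sh_38 and none was called between (largest BARD1, -0.33). Those falls numbered 3 and 5 with sh_37 without its replicates 1 and 2, and with sh_38 0 without its replicate 2, 2 without luciferase replicate 2 and 10 without scrambled replicate 2.

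**Figure D4:**
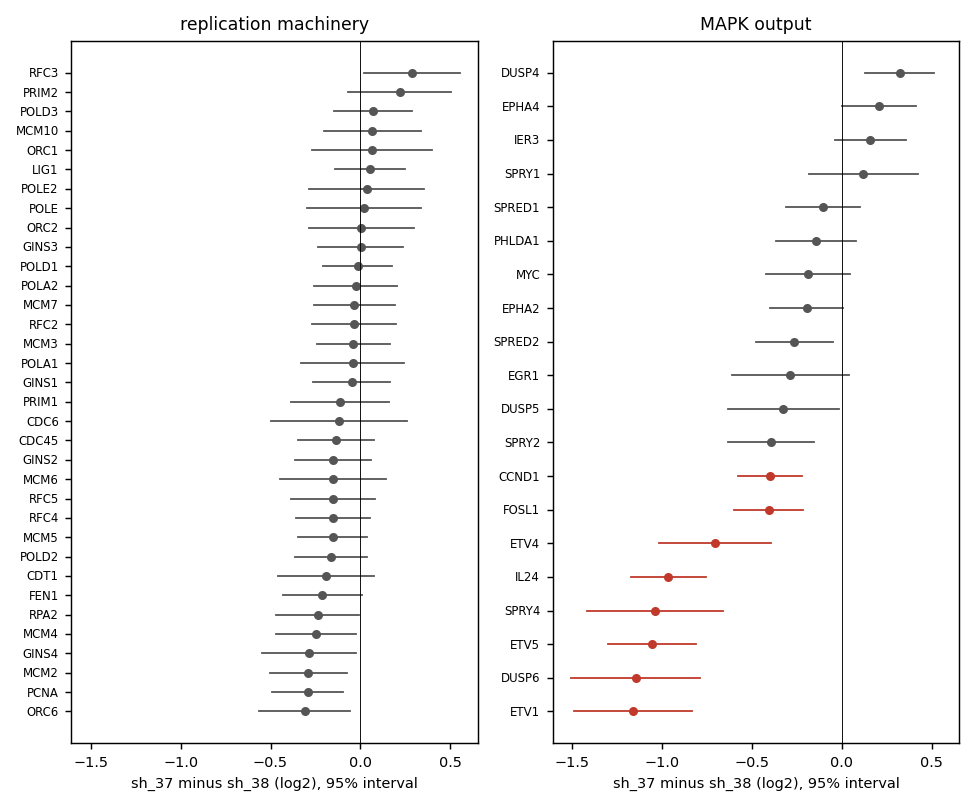
Difference between the hairpins (sh_37 minus sh_38, log2) with its 95% interval from the limma fit, for the genes of replication machinery (left) and of MAPK output (right). Red marks a limma adjusted p under 0.05. No replication gene is red, and 8 of 20 MAPK genes are, from CCND1 to ETV1.

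G2 and mitosis genes were lower with sh_37, where 32 of 34 fell (median -0.52), and 5 fell with sh_38 (median -0.29). Between the hairpins 4 of the 34 were called lower (median -0.24). CDC25C, the phosphatase that activates CDK1, read 8.41 to 8.71 in the controls, 8.55 and 8.46 with sh_38, and 7.60 and 7.59 with sh_37. BIRC5, or survivin, read 9.97 to 10.08 in the controls, 9.98 and 10.03 with sh_38, and 9.47 and 9.48 with sh_37. In both, the sh_38 arrays sat among the controls, and the hairpins differed by -0.91 (limma adjusted p = 0.00102) and -0.53 (limma adjusted p = 0.00311) in every leave-out fit. The calls of BUB1 (-0.46) and KIF2C (-0.37) were lost without any 1 of the sh_37 or sh_38 arrays. The list median per array was -0.55 and -0.52 with sh_37 but -0.17 and -0.36 with sh_38, and without sh_37 replicates 1 and 2 the falls with sh_37 numbered 14 and 16. The falls with sh_38 numbered 1 without its replicate 2, 8 without its replicate 1, and 3 without either sh_37 or sh_83 array or luciferase replicate 2.

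E2F targets of G1/S fell in 24 of 27 with sh_37 and 14 with sh_38, and 5 were called lower between the hairpins. CDC25A, the phosphatase of the G1/S step, read 9.17 to 9.44 in the controls, 9.04 and 8.75 with sh_38, and 8.07 and 7.85 with sh_37 (difference -0.93, limma adjusted p = 0.00233). E2F1 itself read 10.07 to 10.33 in the controls, 9.92 and 9.96 with sh_38, and 9.09 and 9.32 with sh_37 (difference -0.73, limma adjusted p = 0.00327). UNG (-0.65), uracil-DNA glycosylase, was graded, with its sh_38 call lost without sh_38 replicate 2. TYMS (-0.45), thymidylate synthase, lost its difference without any 1 of the 4 H2AZ2 hairpin arrays. ASF1B, a histone chaperone outside the naming rule, was at -0.44. The 5 became 3 without any 1 of the 4 H2AZ2 hairpin arrays. Neither CDC25A nor E2F1 passed with sh_38, at -0.40 (limma adjusted p = 0.0898) and -0.25 (limma adjusted p = 0.197). Without sh_38 replicate 2 no gene of the list was called with sh_38 by limma at the adjusted threshold, and without luciferase replicate 2 the count was 9.

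Promoter sequences were read for these genes because E2F factors are known to bind at replication genes. The letters TTTCCCGC or TTTGGCGC, searched on both strands from 250 bases before to 50 after the start, were in 14 of 29 replication promoters (48.3%), in 9 of 23 of the E2F list (39.1%) and in 1 of 28 of the G2 and mitosis list (3.57%). Over all 27305 promoters of the RefSeq table (GRCh38.p14) the share was 2.31%, and over the 14239 promoters of genes in the fit it was 3.1% (442). Lower genes of both hairpins held them in 26 of 238 (10.9%) and lower genes of sh_37 alone in 5 of 179 (2.79%). A match is a description of letters and no site. The E2F list was chosen as targets of E2F, so its share follows in part from membership. The MCM6 window held matches at -152 and -90 from the start, of which the former is shown. Shown are stretches around the match (capitals) of MCM6, called with both hairpins and not between them, and of CDC25A and E2F1, called between them. All run 5′ to 3′ on the minus strand, in the order chr2:135876558-135876625, chr3:48188424-48188491 and chr20:33686386-33686435, upstream of the start.
MCM6: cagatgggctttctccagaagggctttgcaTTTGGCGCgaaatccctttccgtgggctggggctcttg
CDC25A: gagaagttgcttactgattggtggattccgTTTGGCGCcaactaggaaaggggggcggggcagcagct
E2F1: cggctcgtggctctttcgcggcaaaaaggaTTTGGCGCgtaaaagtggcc
MCM6, a helicase subunit chosen for its promoter and not by the naming rule, read 9.44 to 9.76 in the controls, 8.82 and 8.75 with sh_37, and 9.08 and 8.80 with sh_38 (difference -0.15, 95% interval -0.445 to 0.141). The same letters are thus present in promoters of genes with and without a called difference.

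MAPK output, the genes that report signalling through ERK, were the list with the largest share of falls between hairpins, 8 of 20 (median -0.305). IL24, described above as graded, is on this list and among the 8. With sh_37, 14 fell and 1 rose, and with sh_38, 8 fell. ETV1, an ETS factor, read 9.13, 8.80, 9.05 and 9.22 in the controls, 8.43 and 8.18 with sh_38, and 7.33 and 6.95 with sh_37. ETV5, a close relative, read 9.91 to 10.20 in the controls, 9.63 and 9.54 with sh_38, and 8.58 and 8.47 with sh_37. DUSP6, the phosphatase that switches off ERK, read 8.83 to 9.19 in the controls, 8.75 and 8.54 with sh_38, and 7.68 and 7.31 with sh_37. All 3 step down without overlap, and the hairpins differed by -1.16 (SE 0.15, limma adjusted p = 0.00117), -1.06 (SE 0.11, limma adjusted p = 0.000364) and -1.15 (SE 0.16, limma adjusted p = 0.00201). For none of them was a departure from proportion to H2AZ2 called (limma adjusted p = 0.262, 0.0593 and 0.1). The sh_38 change of DUSP6, -0.37, did not pass (limma adjusted p = 0.181), and those of ETV1 and ETV5 (-0.75 and -0.47) were lost without sh_38 replicate 2, that of ETV5 also without luciferase replicate 2. ETV4 and the feedback inhibitor SPRY4 were graded (-0.70 and -1.04 between hairpins), the latter lost without sh_37 replicate 1. DUSP4, a phosphatase of the same family, fell with both, by 0.43 with sh_37 and 0.75 with sh_38, and the difference of 0.32 did not pass (limma adjusted p = 0.0518). The list held 4 lower genes between hairpins without sh_37 replicate 1 and 6 without any 1 of the other 3 H2AZ2 hairpin arrays, and its falls with sh_38 numbered 2 without sh_38 replicate 2 and 4 without luciferase replicate 2. Those with sh_37 numbered 8 without its replicate 2. ETV4, DUSP4 and CCND1 fall outside the naming rule.

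Of 22 target genes of p53, 5 were called between the hairpins. Against control 10 rose with sh_37 (median 0.36) and 13 with the weaker sh_38 (median 0.51), and between hairpins 4 were lower with sh_37 and 1 higher. The death receptor FAS read 7.40 and 7.37 (scrambled), 7.65 and 7.81 (luciferase), 7.91 and 7.98 (sh_37), and 8.65 and 8.36 (sh_38), a difference of -0.56 (limma adjusted p = 0.0124). SPATA18 (-0.62), a mitochondrial quality gene, AEN (-0.53), a nuclease, and TNFRSF10B (-0.49), a TRAIL receptor, were likewise higher with sh_38. The best known targets CDKN1A (0.15, 95% interval -0.08 to 0.38) and MDM2 (0.06, -0.18 to 0.29) showed no called difference and rose with both hairpins. By the proportion test 8 of 22 exceeded proportion with sh_38. The control hairpins also separated on this list, scrambled minus luciferase having a median of -0.215, though no member was called there. Without sh_37 replicate 1 or 2 the 4 lower genes between hairpins became 1 or 0, without sh_38 replicate 1 they were 2, and without sh_38 replicate 2 the rises with sh_38 numbered 5. The rises with sh_37 numbered 5 and 6 without its replicates 1 and 2. CDKN1A, MDM2 and PLK2 fall outside the naming rule. PLK2 (0.34) was the member higher with sh_37.

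Smooth muscle contractile genes and other targets of serum response factor (SRF) were called higher between hairpins in 6 of 19 (median 0.18), none lower. CNN1, or calponin, read 7.59 and 7.81 (scrambled), 7.85 and 7.87 (luciferase), 8.10 and 8.24 (sh_38), and 10.17 and 10.23 (sh_37). TAGLN, or transgelin, read 7.48 to 7.67 in the controls, 8.33 and 8.27 with sh_38, and 9.88 and 9.95 with sh_37. Both rose with sh_38, by 0.39 (limma adjusted p = 0.027) and 0.72 (limma adjusted p = 0.006), and far more with sh_37, by 2.42 and 2.33. The sh_38 call of CNN1 was lost in 8 of 12 leave-out fits, among them those without sh_38 replicate 2 and without either sh_37, sh_83 or luciferase array, and that of TAGLN without sh_38 replicate 2. Both fell short of proportion (departures -0.94 and -0.56, limma adjusted p = 0.000314 and 0.0179). TPM1 (0.55), a tropomyosin, lost its difference without sh_37 replicate 1 or 2. CSRP1 (0.61) differed through a fall with sh_38 of -0.39 that was lost without sh_38 replicate 2. MYLK, myosin light chain kinase, was graded at 8.62 to 8.92 in the controls, 9.39 and 9.34 with sh_38 and 9.84 and 9.82 with sh_37, close to the H2AZ2 ratio (departure adjusted p = 0.995 by limma). The count was 3 without sh_37 replicate 1 or 2, and 4 without sh_38 replicate 1.

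A CArG box, the motif that SRF binds, was searched in the same windows on both strands. It was in 4 of 16 promoters of the list (25%) against 1.29% of all promoters and 1.22% of those of genes in the fit. Since SRF targets were chosen for the list, its share follows in part from membership. Of 29 graded rises, 2 held the box (6.9%). The MYLK stretch, with the box in capitals, lies on the minus strand at chr3:123620603-123620672 and is shown because this gene was graded.
MYLK: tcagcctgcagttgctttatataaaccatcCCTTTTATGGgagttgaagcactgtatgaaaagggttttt

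Collagens and extracellular matrix were higher with sh_37 in 7 of 28 genes between hairpins and lower in none (median 0.21). With sh_37 11 rose and with sh_38 2 rose and 1 fell. LOX, which crosslinks collagen, read 8.81 and 8.85 (scrambled), 9.04 and 9.05 (luciferase), 9.08 and 9.05 (sh_38), and 9.89 and 10.02 (sh_37). Its sh_38 arrays equalled the luciferase arrays, and the hairpins differed by 0.89 (SE 0.095, limma adjusted p = 0.000376). LUM, the proteoglycan lumican, read 8.46 and 8.41 (scrambled), 9.14 and 9.25 (luciferase), 9.22 and 9.17 (sh_38), and 10.19 and 9.98 (sh_37). Here again the sh_38 arrays matched luciferase, and the sh_38 call of LUM (0.38, limma adjusted p = 0.0374) was lost in 7 of 12 leave-out fits, among them those without either sh_38, sh_83 or luciferase array. COL5A2 (1.03) and FN1 (1.31) were the other large differences. The count was 5 without sh_37 replicate 1.

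Matrix proteases added ADAM12 (1.41), ADAMTS5 (1.20), the plasminogen activator PLAT (0.70) and MMP2 (0.535), 5 of 19 higher in all and none lower. PLAT fell with both hairpins, by 0.43 with sh_37 and by 1.13 with sh_38, and so was higher with sh_37 in the direct comparison. Its sh_37 call was lost without either sh_37 array, scrambled replicate 2 or luciferase replicate 1. Its difference was lost without sh_37 replicate 1 or sh_38 replicate 2, and that of MMP2 without any 1 of the 4 H2AZ2 hairpin arrays. The 5 became 2 without sh_37 replicate 1 or sh_38 replicate 2 and 3 without the other H2AZ2 hairpin arrays. Among integrins and their ligands 4 of 18 were higher and 1 lower. SPP1 (0.72), or osteopontin, read 9.66 and 9.54 with sh_37, a mean of 0.19 below control that did not pass, and 8.92 and 8.83 with sh_38. MFGE8 (0.64) rose with sh_37, ITGB8 (0.48) fell with sh_38, and ITGA6 (-0.57) fell with sh_37. The calls between hairpins of ITGA6 and ITGB8 were lost without sh_37 replicate 1 or 2, among others, as was the sh_38 call of ITGB8 without sh_38 replicate 2. The 4 higher became 2 without any 1 of the H2AZ2 hairpin arrays or either sh_84 array.

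TGF-beta and activin signalling differed between the hairpins in 9 of 25 genes, 8 higher and 1 lower with sh_37. The ligand TGFB2 read 10.72 to 11.09 in the controls, 11.12 and 11.17 with sh_38, and 12.12 and 12.21 with sh_37 (difference 1.02, limma adjusted p = 0.00201). The receptor TGFBR2 was the fall, at 9.91 to 10.02 in the controls, 10.18 and 10.19 with sh_38, and 9.1 and 9.0 with sh_37 (difference -1.13, SE 0.09, limma adjusted p = 9.12e-05). FSTL1 (1.08), a secreted follistatin relative, was an opposite gene, and SKIL (0.64), a SMAD corepressor, differed through a fall with sh_38. The difference of SKIL was lost in 7 leave-out fits, including those without either sh_37 array and without sh_38 replicate 2. The 8 higher genes became 2 without sh_37 replicate 1 or 2 and 3 without sh_38 replicate 2. In the Wnt pathway 5 of 24 were higher and 1 lower. Besides DACT1, the receptors FZD3 (1.01), opposite, and ROR1 (0.73) were higher, and FZD8 (-0.84) was lower, reading 10.17 to 10.48 in the controls, 9.89 and 9.95 with sh_38, and 9.13 and 9.02 with sh_37. The sh_38 call of FZD8 was lost in 10 of 12 leave-out fits, including those without either sh_38 array. The 5 higher became 3 without either sh_37 array or sh_38 replicate 2.

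Cytokines and NF-kB targets went both ways, 3 of 21 higher and 2 lower. CXCL1, a neutrophil chemokine, was graded at 11.86 to 12.10 in the controls, 11.56 and 11.43 with sh_38, and 10.39 and 10.61 with sh_37 (difference -0.996, limma adjusted p = 0.000508). Its sh_38 call was lost without sh_38 replicate 2. CCL2, a monocyte chemokine, rose with sh_37 alone, to 12.97 and 13.05 from 11.57 to 12.17 in the controls, with 11.90 and 11.88 under sh_38 (difference 1.12, limma adjusted p = 0.0011). IL6 fell with both and further with the weaker hairpin, at -0.73 with sh_37 and -1.21 with sh_38. The difference of IL6 (0.48) and that of IL11 (-0.59) were lost without sh_37 replicate 1 or 2 or sh_38 replicate 2. Interferon response genes were higher in 3 of 32, IFI6 (1.22), the double-stranded RNA sensor TLR3 (1.03) and SAMD9L (0.79), the last of these lost in 5 leave-out fits and TLR3 in 3, including those without either sh_37 array. The median of the list between scrambled and luciferase was -0.19. Antigen presentation had 1 higher (HLA-DMA) and 1 lower (CIITA) of 12, each lost without either sh_37 array. The RNA interference machinery had 1 of 15 called, AGO4 (0.41), also lost without either.

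Cholesterol synthesis was higher with sh_37 in 6 of 16 genes between the hairpins and lower in none (median 0.34), with 7 rises with sh_37, and 1 rise and 2 falls with sh_38. FDPS, farnesyl diphosphate synthase, read 9.83 to 9.97 in the controls, 10.10 and 10.09 with sh_37, and 9.58 and 9.53 with sh_38. The controls thus lay between the hairpins, and the difference was 0.54 (SE 0.08, limma adjusted p = 0.00278). HMGCS1 (0.49), an upstream enzyme of the pathway, rose with both. MVK (0.47) and FASN (0.45), the latter a gene of fatty acid synthesis on this list, were called between hairpins and with neither against control. All but FDPS of these lost the difference without sh_37 replicate 1, and the count was then 1, as it was without sh_38 replicate 2. It was 2 without sh_37 replicate 2 and 3 without sh_38 replicate 1, and the rises with sh_37 numbered 1 without either of its arrays. NRF2 targets were higher in 4 of 14, with HMOX1 (0.76), heme oxygenase, and ME1 (0.70), malic enzyme, called in every leave-out fit, and NQO1 (0.44) and PGD (0.37) lost without any 1 of the 4 H2AZ2 hairpin arrays. Lysosome and TFE targets had 3 of 20 higher, GPNMB (1.165), CTSS (0.79) and RRAGD (0.68), and ATP6V0D2 (-0.79) lower. CTSS was lost without sh_37 replicate 2, RRAGD without sh_37 replicate 1 and ATP6V0D2 without either.

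Genes of H2A.Z biology were called between hairpins in 1 of 20 for deposition and removal, 0 of 3 BET readers and 1 of 4 other H2A family genes, beside 6.27% of all genes. Of the 20 genes of H2A.Z deposition and removal, MRGBP (-0.585), a subunit of the p400 complex, was called, at 10.43 to 10.54 in the controls, 10.37 and 10.47 with sh_38, and 9.80 and 9.86 with sh_37. None of the BET readers was called against control either. BRD3 was at 0.03 and BRDT at 0.06, and the latter turned to -0.024 without sh_38 replicate 1. MACROH2A2 (0.67), of the H2A family, was higher, through a fall of 0.47 with sh_38, and its difference was lost without sh_37 replicate 1 or sh_38 replicate 2.

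State markers of melanoma and stress were read beside the 4.07% of all genes called higher and the 2.2% called lower between the hairpins. Melanocyte lineage genes had 2 of 23 higher, GPNMB and KIT (1.07), both from low levels, and none lower. Dedifferentiated melanoma had EGFR (-0.42) lower, 1 of 18, and YAP and TEAD targets had 2 of 15 lower, NT5E and LATS2 (-0.35). Senescence-associated genes had 5 of 16 higher and 3 lower, with IGFBP5 (1.21), CDKN1B (0.61), IGFBP3 (-0.67) and HMGB2 (-0.65) the largest. Hypoxia had SLC2A3 (0.58) higher and PFKFB4 (-0.37) lower of 17. The unfolded protein response had PPP1R15A (-0.42) lower of 19, and housekeeping genes POLR2A (0.51) higher of 13. Of these, KIT, GPNMB, NT5E, IGFBP5, IGFBP3 and HMGB2 kept the call in every leave-out fit, and each of the others lost it without at least 1 of the sh_37 arrays. The 5 higher senescence-associated genes became 1 and 3 without sh_37 replicates 1 and 2, and 2 without sh_38 replicate 2.

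Markers of other cell types were unequal in level. The mean level of 11 keratinocyte markers ran from 6.33 to 6.63 in controls, 6.45 to 6.53 with sh_37 and 6.41 to 6.67 with sh_38, and none was called between hairpins, beside 6.27% of all genes (IVL at -0.20, turning to 0.218 without sh_38 replicate 2). KRT14, a defining keratinocyte gene, lay at 7.91 to 8.68, the 60.4th percentile of all genes. Of 12 fibroblast markers LUM was called, with list means of 6.33 to 6.59 in controls, 6.64 to 6.71 with sh_37 and 6.55 to 6.72 with sh_38. DCN, a defining fibroblast gene, lay at 3.26 to 3.76, the 1st percentile of all genes, and COL3A1 at 6.27 to 6.95. LUM (8.41 to 10.19) and COL1A1 (7.54 to 8.52) lay at the 70.9th and 54.8th percentile. Endothelial markers (11) had ROBO4 (-0.56) called, lost without sh_37 replicate 1 or 2, and list means of 6.08 to 6.32 in controls, 6.24 to 6.25 with sh_37 and 6.26 to 6.43 with sh_38. Leukocyte markers (11) had CD68 (-0.86) and LYZ (-0.68) lower with sh_37, means of 6.39 to 6.62 in controls, 6.33 to 6.42 with sh_37 and 6.61 to 6.70 with sh_38, and PTPRC, which defines leukocytes, at 4.05 to 4.28. CD68, a lysosomal protein of macrophages that other cells also express, stood high at 10.81 to 11.82, and the difference of LYZ was lost in 9 of 12 leave-out fits, among them those without either sh_37 array and without any H2AZ1 array. The part of other cell types in the results was not tested.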

How the data were processed

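Total RNA was hybridised to Affymetrix Human Gene 1.0 ST arrays. Deposited values are log2 signals per probe set, for which the submitters' processing notes name RMA with no version. The platform annotation pairs 19460 of the 33297 probe sets with a single symbol and 1754 with several. The other 12083 are not listed or have no symbol there. Through Entrez IDs, 19429 were found in the reference gene table. The brightest probe set of a gene was kept (769 genes had several), which left 18417 genes. Array medians ran from 7.0 to 7.097, and no further scaling was applied.

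limma 3.58.1 in R 4.3.3 was fitted to all 12 arrays with 6 hairpin groups (eBayes, 6 residual degrees of freedom, prior 4.695), two-sided, with Benjamini-Hochberg adjustment over all genes and a threshold of 0.05. Control is the mean of scrambled and luciferase. The departure from proportion is sh_38 minus control less 0.5495 times sh_37 minus control, with that ratio taken as known. The number of arrays limits the precision. Named genes are the targets, the 10 largest differences each way between hairpins, the 5 largest each way per class, the 6 largest opposite genes, the 4 largest departures each way, and up to 4 called members per list (2 where none was called). The members and the 34 lists (639 of 687 entries measured) were chosen with earlier results of these data known. The fit was tested on simulated data. Alternatives covered left-out arrays, the 8 arrays alone, the replicate number, scaling, the variance model, probe sets, dim genes, the control hairpin, the limit of 0.2 and the ratio. Promoter windows are RefSeq's on GRCh38.p14 and held 14239 of the 18417 genes. Hairpin sequences and scan batches were not analysed here. Figures were drawn with matplotlib 3.10.9.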

Additional observations from a re-analysis of the deposited data

Results flagged for a closer look

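The 26 genes with opposite calls stood out because the effects of 2 hairpins against 1 target differ in direction. The difference itself also passed the test (sh_37 minus sh_38, limma adjusted p under 0.05). Called changes in opposite directions make that pass likely, so it and its stability follow in part from the rule. Secreted, matrix and adhesion genes higher with sh_37 were FN1 (1.31), CHRDL1 (1.31), CDH11 (1.29), CNTNAP1 (1.29), CPE (1.11), FSTL1 (1.08), IGFBP4 (0.91). Membrane, transport and receptor genes higher with sh_37 were SLC35F1 (1.45), ATP9A (1.32), SLC44A2 (1.19), CALHM5 (1.06), ENTREP3 (1.07), FZD3 (1.01), SV2A (0.87). Enzymes were ETNK2 (1.14), ST3GAL5 (1.09), GSTM2 (0.93). Nuclear, RNA-binding and translation factors were EEF1A2 (1.59), SATB1 (1.50), JAZF1 (1.08), BICC1 (0.95), CHD3 (0.76), RBFOX2 (0.69), and LGALSL, a galectin relative, stood at 0.91. Lower with sh_37 and higher with sh_38 were STX3 (-0.84), a syntaxin, and KLHL42 (-1.02), a ubiquitin ligase adaptor. All 26 kept the difference in every fit that leaves out 1 array, while 12 kept the call with sh_37 against control and 5 that with sh_38. Sequence-dependent effects of a hairpin beyond its target were not tested.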

How the results depend on the processing

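Counts moved by over 1.5 times under several alternatives. With the 8 arrays alone, which leaves fewer residual degrees of freedom, the direct comparison called 656 genes, sh_38 against control 415 and the departure 321, with 23 graded, 286 sh_37 alone, 69 sh_38 alone, 12 opposite and 158 shared genes. With the small nucleolar RNA level as covariate the direct comparison called 1855 and sh_37 alone held 890, and the higher share of departures moved from 27.9% to 42.6%. A mean-variance trend gave 102 graded, 209 sh_38 alone and 52 opposite genes. Opposite genes numbered 45 after quantile normalization and 47 without the dimmest 25% of genes. Scrambled alone as control gave 468 calls with sh_38, 82 sh_38 alone, 7 opposite and 201 shared, and luciferase alone 29 graded and 236 shared. With sh_37 set against scrambled and sh_38 against luciferase there were 29 graded and 170 shared genes, and with the reverse 86 sh_38 alone, 8 opposite and 163 shared. The cause was not tested in these cases.

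Replicate numbers were not taken as pairs, since not every pair of groups correlated over 0.1 in the deviations of same-numbered arrays (-0.469 to 0.677). Those of sh_37 and sh_38 correlated at 0.375 and those of scrambled and sh_38 at 0.677, so the pairing is not settled. The replicate block gave 1385 calls in the direct comparison, 2723 and 1110 with sh_37 and sh_38 against control, 904 departures and 46 opposite genes. Fits that leave out 1 array gave 393 to 1238 calls in the direct comparison, 922 to 2510 with sh_37, 148 to 1431 with sh_38, 0 to 0 between the controls, 138 to 844 departures, 11 to 67 graded, 169 to 543 sh_37 alone, 35 to 177 sh_38 alone, 6 to 34 opposite and 61 to 549 shared genes. Of the values of named genes, BRDT ran from -0.024 (without sh_38 replicate 1) to 0.151 and IVL from -0.62 to 0.218 (without sh_38 replicate 2) in these fits, neither called. Of the others, 1490 stayed on their side of the threshold and 176 lost the call in these fits, and under other alternatives 1107 stayed and 31 lost it. Each named gene other than H2AZ2 entered these tallies with 1 comparison, the direct difference where that was called. The sh_38 calls of graded genes other than H2AZ2 are thus not counted there, such as those of GASK1B and EMP1 described above. No rescaling moved the median of all genes by over 0.1. Signal over background is unknown.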

Other observations

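Clustered protocadherins, cell-surface cadherins encoded in tandem arrays, stood out among genes not on the lists and were chosen after their values were seen. Of 16 protocadherin beta genes, 9 were higher with sh_37 than with sh_38 and none lower (median 0.56, against -0.03 over all genes). Over all genes 4.07% were called higher and 2.2% lower in that comparison. With sh_37 against control 12 rose, beside 5.72% of all genes, and with sh_38 PCDHB9 did, beside 1.28%. PCDHB7 read 6.71, 6.54, 6.59 and 6.84 in the controls, 6.90 and 6.67 with sh_38, and 8.38 and 8.46 with sh_37. PCDHB13 read 5.41 to 6.05 in the controls, 5.82 and 5.77 with sh_38, and 6.85 and 6.62 with sh_37. PCDHB9 was graded, at 8.48 to 8.93 in the controls, 9.32 and 9.15 with sh_38, and 9.77 and 9.72 with sh_37. The list median per array was 0.79 and 0.76 with sh_37, 0.23 and 0.06 with sh_38, and -0.13 to 0.16 in the controls. Without sh_37 replicate 1 or 2, or sh_38 replicate 2, 6 were called between hairpins. Of 12 protocadherin alpha genes 2 were higher (median 0.29), 0 without any 1 of the 4 H2AZ2 hairpin arrays, and their 6 rises with sh_37 became 0 without sh_37 replicate 1. These paralogs are similar in sequence, so the probe signals of single members are uncertain.

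A set of 13 genes (0.0706% of all) was called with both hairpins and more strongly with the weaker one. Lower were IL6, PLAT, DHTKD1 (-0.42 with sh_37 and -0.85 with sh_38), PNP (-0.48 and -0.99), DNAJC9 (-0.30 and -0.79), TAF9B (-0.28 and -0.855), MNAT1 (-0.36 and -0.825), IGSF3 (-0.26 and -0.75) and ST3GAL1 (-0.32 and -0.74). Higher were FAS, SPATA18, FETUB (0.35 and 0.765) and LINC00518 (0.55 and 1.19).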
